A study of Mus musculus with 9 samples.

Results

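The genes of MHC class II antigen presentation were followed across lung RNA of 3 groups of mice. The 10 genes are H2-Aa, H2-Ab1, H2-Eb1, H2-DMa, H2-DMb1, Cd74, Ciita, Ifi30, Cd83 and Cd86. Every probe set (a group of short probes for 1 transcript) that the array's annotation assigns to 1 of these symbols alone was taken, which gave 13 probe sets for 10 of the 10 genes, among 12422 probe sets that are not controls and 8251 genes with a symbol of their own. A further probe set, annotated to a listed gene together with another one, was not counted. The list was chosen from intensities of these same arrays, with all 3 group comparisons already known, so the values of the 10 genes are given as a description, without p-values.

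Total RNA came from lungs of C57BL6 mice in an asthma model, with 3 arrays a group. The first group was challenged with ovalbumin (OVA, the egg-white allergen) and received an agonist of EP3, a receptor subtype for prostaglandin E. The second was challenged with OVA alone, and the third with saline in the same model. A time of 24 h stands in the sample titles of the groups that received OVA. The sources used here do not give the compound, its dose and timing, the sensitization, or the age and sex of the mice. Nothing in the labels tells whether arrays within a group came from separate mice, and p-values here then measure only the spread between these samples, which may be technical. In whole lung RNA, fewer cells of a type and less RNA per cell cannot be told apart.

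MHC class II molecules carry peptides from ingested proteins to the cell surface, where CD4+ T cells read them. Their alpha and beta chains assemble with the invariant chain Cd74, which is cut down by lysosomal proteases to a short remnant. H2-DM then exchanges this remnant for antigen peptides. Ciita is the coactivator that switches on class II genes, mainly in dendritic cells, B cells and activated macrophages. In mouse lung, alveolar type 2 cells also carry class II molecules.

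Values are intensities on a common scale set by each array's trimmed mean. The trimmed means of the deposited values ran from 138.7 to 241.2 and the scale factors from 0.741 to 1.29. The detection limit of 44.7 is the 40th percentile of all scaled values, not a measured threshold. The share of probe sets above it, 59.6% to 60.6% on each array, was therefore largely set in advance. Values below 0 occur among the deposited values, and how they arose is not given in the sources used here. A probe set was tested where at least 3 of the 9 arrays exceeded the limit, which left 7920 probe sets, and it was called at an adjusted p of 0.05 (limma, Benjamini-Hochberg over the 7920). Of the 13 class II probe sets, 11 were tested, with each of the 10 genes represented.

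OVA lung showed about double the class II signal of saline lung in the chains of the antigen-presenting molecule, and the arrays of mice that also received the EP3 agonist overlapped with the saline arrays in these chains. H2-Aa, the alpha chain of the I-A molecule, read 1505, 1733 and 2149 on the EP3 agonist arrays, 3207, 3353 and 3248 on the OVA arrays, and 1630, 1669 and 1374 on the saline arrays. The OVA arrays lay above all others, while the agonist and saline arrays overlapped. The group means were 1796 ± 327 with agonist, 3269 ± 75.5 with OVA and 1558 ± 160 with saline (SD, n = 3 each). H2-Aa was 2.11-fold higher in OVA than in saline lung (log2 change 1.07 ± 0.14 SE) and 1.84-fold lower with agonist than with OVA alone (log2 change −0.88 ± 0.14 SE).

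H2-Ab1, the beta chain that pairs with H2-Aa, read 604, 797 and 916 with agonist, 1704, 1740 and 1727 with OVA, and 778, 634 and 463 with saline. The 3 OVA arrays differed by less than the arrays of either other group and stood clear of both. Its group means were 772 ± 158, 1724 ± 18.2 and 625 ± 157 in agonist, OVA and saline lung (SD, n = 3 each). The log2 change of H2-Ab1 was 1.50 ± 0.21 SE (2.82-fold higher) for OVA over saline and −1.18 ± 0.21 SE (2.27-fold lower) for agonist over OVA.

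H2-Eb1, the beta chain of the I-E molecule, read 998, 1265 and 1618 with agonist, 2168, 2295 and 2427 with OVA, and 1226, 1253 and 1035 with saline. It was 1.97-fold higher in OVA than in saline lung (log2 change 0.97 ± 0.17 SE) and 1.81-fold lower with agonist than with OVA (−0.85 ± 0.17 SE). C57BL/6 mice are known to carry a promoter deletion in H2-Ea, the alpha chain that H2-Eb1 needs as a partner, and make no I-E molecule. The H2-Ea probe set read −5.60, −2.24 and 15 with agonist, 7.56, 0.894 and −2.37 with OVA, and 6.27, 5.10 and 3.76 with saline. All 9 of these readings lay below the detection limit.

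**Figure D1:**
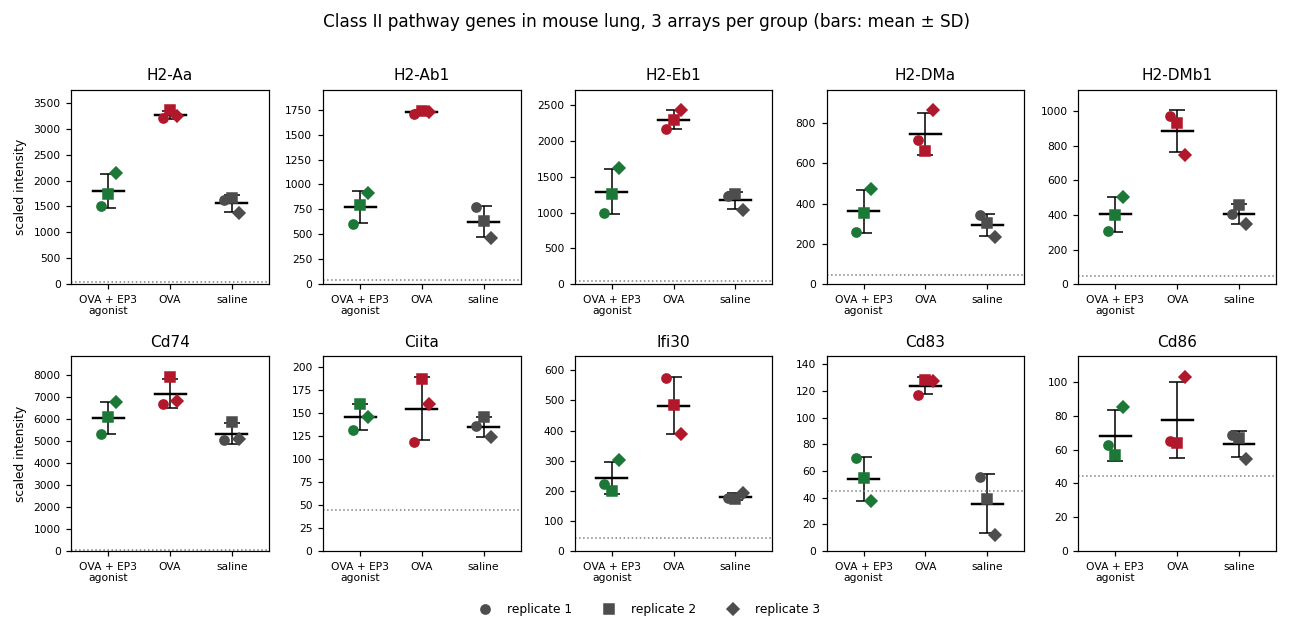
Scaled intensity of the 10 genes (1 tested probe set each) on each of the 9 arrays, with EP3 agonist arrays at the left, OVA arrays in the middle and saline arrays at the right. Points are arrays, thick lines group means, bars the SD over 3 arrays and dotted lines the detection limit of 44.7; the OVA arrays of H2-Aa sit at 3207 to 3353, above all agonist (1505 to 2149) and saline arrays (1374 to 1669).

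The chain genes follow each other in the class II region in the order H2-DMa, H2-DMb1, H2-Ab1, H2-Aa and H2-Eb1 (RefSeq gene order, mouse chromosome 17). H2-Ab1, H2-Aa and H2-Eb1 are direct neighbours, and other coding genes lie between H2-DMa, H2-DMb1 and H2-Ab1. Class II promoters are known for an X box, bound by RFX, and a Y box, bound by NF-Y, on which Ciita docks. RefSeq promoter windows (GRCm38.p6, from 250 bases before to 50 after the annotated start) were at hand for 5 of the 10 genes, in 6 windows. They were searched on both strands for the Y core ATTGG and the X core AGNNACNG, which do not overlap in a pair. An X core followed by a Y core on 1 strand with 20 to 32 bases between them was present for H2-Eb1 and H2-DMb1. Among 32851 windows of 27025 genes, 37.4% hold the Y core, 50.9% the X core and 0.639% the pair. The stretches below are shown because they carry these letters upstream of chains that were higher in OVA lung; capitals mark the X core (first) and the Y core (last). The H2-Aa stretch has the Y core but no match to the X core letters that were searched, and an X box spelled otherwise would be missed. It was picked for comparison after the sequence was seen.
H2-Eb1, chr17:34305769-34305818, plus strand: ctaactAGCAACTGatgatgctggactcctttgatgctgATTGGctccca
H2-DMb1, chr17:34153090-34153140, plus strand: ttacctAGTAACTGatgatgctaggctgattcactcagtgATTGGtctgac
H2-Aa, chr17:34287861-34287911, minus strand: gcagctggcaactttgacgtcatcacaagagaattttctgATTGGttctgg
The Y core starts 59 bases before the annotated start in H2-Eb1, 61 in H2-DMb1 and 48 in H2-Aa. The cores of a pair are 25 bases apart in H2-Eb1 and 26 in H2-DMb1. A match describes letters in these windows and was not tied to binding or to the array values.

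The genes that act on the peptide were also brightest in OVA lung. H2-DMb1, the beta chain of H2-DM, read 308, 398 and 507 with agonist, 975, 932 and 749 with OVA, and 407, 460 and 350 with saline. The OVA arrays again stood above the rest, and agonist and saline arrays interleaved. H2-DMb1 was 2.18-fold higher in OVA than in saline lung (log2 change 1.13 ± 0.20 SE) and 2.22-fold lower with agonist than with OVA (−1.15 ± 0.20 SE).

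H2-DMa, its alpha chain, read 258, 355 and 472 with agonist, 716, 660 and 862 with OVA, and 344, 305 and 235 with saline. The OVA arrays did not overlap with those of either other group. Its log2 change was 1.35 ± 0.24 SE (2.55-fold higher) for OVA over saline. For agonist over OVA it was −1.08 ± 0.24 SE (2.11-fold lower), which was not called. A second H2-DMa probe set was not tested, with every reading at or below 2.55.

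Ifi30, the lysosomal thiol reductase that opens disulfide bonds of antigens, read 222, 200 and 301 with agonist, 575, 486 and 387 with OVA, and 175, 171 and 193 with saline. The 3 groups did not overlap: OVA arrays were highest, agonist arrays came next and saline arrays were lowest. Ifi30 was 2.66-fold higher in OVA than in saline lung (log2 change 1.41 ± 0.19 SE) and 2.01-fold lower with agonist than with OVA (−1.01 ± 0.19 SE). With agonist it was 1.32-fold above saline (0.40 ± 0.19 SE), which was not called.

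Cd74, the invariant chain that escorts the chains to the endosome, read 5326, 6100 and 6791 with agonist, 6718, 7917 and 6853 with OVA, and 5039, 5889 and 5090 with saline. Its OVA arrays were above all saline arrays, and the agonist arrays spanned from the saline range into the OVA range. The log2 change of Cd74 was 0.42 ± 0.12 SE (1.34-fold) for OVA over saline and −0.24 ± 0.12 SE (1.18-fold lower) for agonist over OVA, neither of which was called.

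The regulator Ciita read 132, 160 and 146 with agonist, 119, 187 and 160 with OVA, and 136, 146 and 124 with saline. All 3 groups overlapped. Ciita had a log2 change of 0.17 ± 0.17 SE for OVA over saline and of −0.06 ± 0.17 SE for agonist over OVA, both within about 1 standard error of 0, and neither was called.

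The 2 surface proteins of activated antigen-presenting cells were dim. Cd83, which keeps class II on the surface of mature dendritic cells, read 69.6, 54.5 and 37.1 with agonist, 117, 128 and 127 with OVA, and 55.6, 39.3 and 11.8 with saline on its brighter probe set. OVA arrays stood above both other groups, but only 2 agonist arrays and 1 saline array exceeded the detection limit. Its OVA arrays alone were enough to pass the filter on dim probe sets, which selects for a difference of this kind. Its log2 change was 2.07 ± 0.53 SE for OVA over saline and −1.25 ± 0.53 SE for agonist over OVA, neither called. The other Cd83 probe set had 1 array above the limit in each group, at 45.3 with agonist, 58.6 with OVA and 65.6 with saline. With a log2 change of −0.32 ± 1.43 SE for OVA over saline it did not follow the first.

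Cd86, which binds CD28 on T cells as a costimulatory signal, read 62.7, 57.1 and 85.3 with agonist, 65, 64.2 and 103 with OVA, and 68.8, 66.8 and 54.4 with saline. The groups overlapped throughout, and its log2 change was 0.26 ± 0.23 SE for OVA over saline and −0.17 ± 0.23 SE for agonist over OVA. A second Cd86 probe set was not tested, with its highest reading at 12.6.

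**Figure D2:**
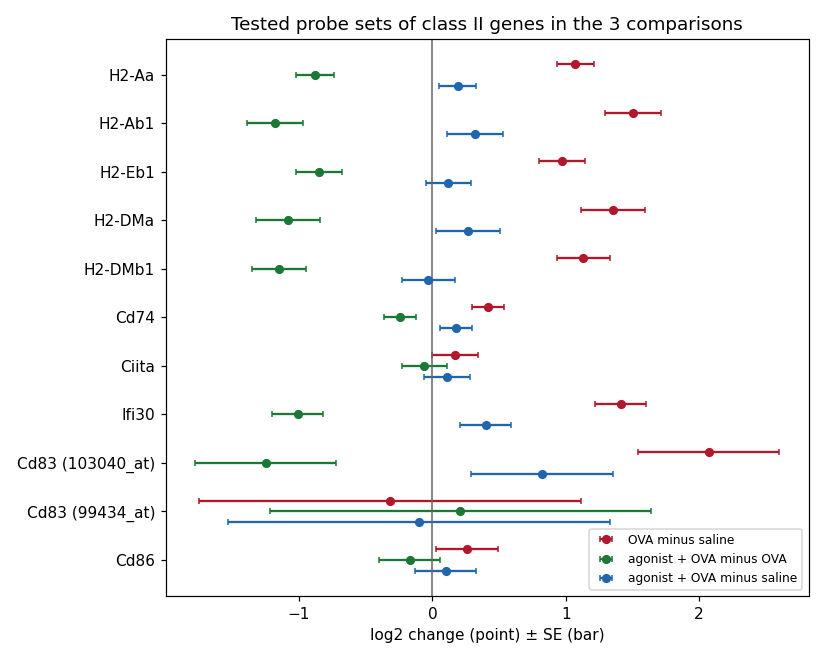
Log2 change (points) with its standard error (bars) for the 11 tested class II probe sets, for OVA over saline in red, agonist over OVA in green and agonist over saline in blue. H2-Ab1 sits at −1.18 for agonist over OVA and at 1.50 for OVA over saline, while Ciita and Cd86 sit near 0 in all comparisons.

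Counted together, 6 of the 11 tested probe sets were called higher in OVA than in saline lung (H2-Aa, H2-Ab1, H2-Eb1, H2-DMa, H2-DMb1 and Ifi30) and 0 lower, with 5.08% of all tested probe sets called higher. The arrays of 8 of the 11 did not overlap, all with OVA above saline, against 15.5% of all tested probe sets. For agonist over OVA, 5 of the 11 were called lower (the same genes without H2-DMa), with 1.50% of all tested called lower, and 7 did not overlap, with agonist below OVA, against 12% of all. The genes were chosen from these contrasts, so nothing is read from these counts. The median log2 change of the 11 was 1.07 for OVA over saline and −0.88 for agonist over OVA, beside medians of −0.08 and 0.06 over all tested probe sets. Both comparisons share the OVA arrays, so their opposite signs are not independent.

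The calls rest on few arrays. For OVA over saline, 2 of the 11 probe sets (H2-Aa and Ifi30) were called without OVA replicate 1 or 2, and 3 (with H2-Ab1) without any 1 saline array. In the comparison of agonist with OVA, 0 were called without OVA replicate 1 or 2, agonist replicate 1 or 2, or any 1 saline array, 2 without OVA replicate 3 and 6 without agonist replicate 3. With each of the 9 arrays left out, 0 of the called values turned in sign. This was fixed in advance, since the groups of every called probe set did not overlap.

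Hybridization controls bioC and bioD were lowest on the arrays numbered 2 in each group, so changes were also taken between arrays with the same number. The median log2 change of the 11 probe sets was 1.06, 1.01 and 1.10 for OVA over saline within numbers 1, 2 and 3. It was −1.09, −0.89 and −0.59 for agonist over OVA. Both directions were seen in every number, but this is no check on the number. The arrays of 8 and 7 of the 11 chosen probe sets did not overlap in these comparisons. Any pairing of the arrays would therefore have given medians of the same sign.

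Agonist and saline lung were also set against each other. In this comparison 0 of the 11 probe sets were called and 0 had an unadjusted limma p under 0.05, with 0.0758% of all tested probe sets called in either direction and 7.71% at that unadjusted p. The genes were chosen with this comparison known as well, so nothing is read from these counts. Only Ifi30 had non-overlapping arrays, against 13.7% of all tested. The median log2 change was 0.18, beside 0 over all tested probe sets, and within numbers 1, 2 and 3 it was −0.12, 0.13 and 0.64. The log2 change was 0.19 ± 0.14 SE for H2-Aa, 0.32 ± 0.21 SE for H2-Ab1, 0.12 ± 0.17 SE for H2-Eb1, 0.27 ± 0.24 SE for H2-DMa and −0.03 ± 0.20 SE for H2-DMb1. With 3 arrays a group, a remaining difference of the size of these errors was not detectable.

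The 3 agonist arrays differed among themselves in class II signal. Over the 6 probe sets of the chains, H2-DM and Cd74, agonist replicate 1 lay within the saline range in 4 and below every saline array in 2. Replicate 2 lay above every saline array in 5 of the 6, and replicate 3 in 6 of 6. Replicates 1 and 2 lay below every OVA array in 6 of 6, and replicate 3 in 5 of 6, with Cd74 as the exception. The genes were chosen from these contrasts, and shares over all tested probe sets were not taken. Nothing is therefore read from these positions. Measured from the mean of their own group, the 6 probe sets averaged −0.32, 0.01 and 0.31 on agonist replicates 1, 2 and 3 on the log2 scale. These deviations were −0.02, 0.02 and 0 on the OVA arrays and 0.11, 0.11 and −0.22 on the saline arrays.

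**Figure D3:**
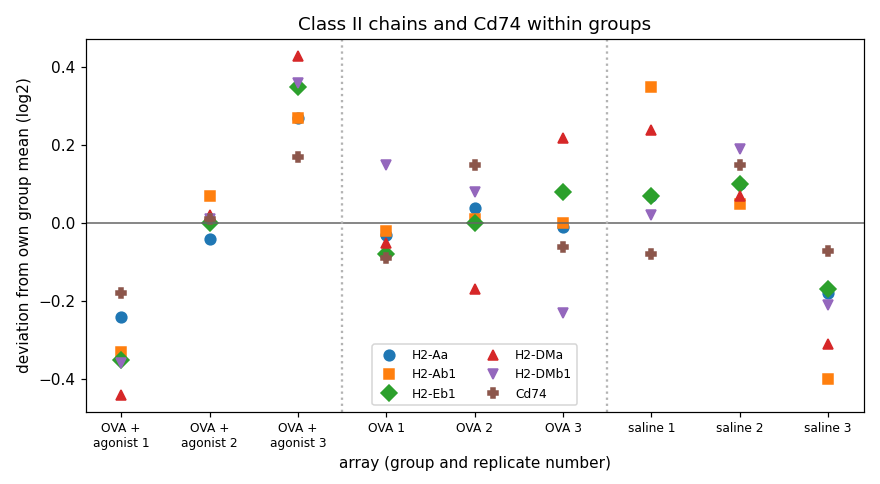
Log2 deviation of each of the 6 chain, H2-DM and Cd74 probe sets from its own group mean, on the 9 arrays with agonist arrays left, OVA arrays in the middle and saline arrays right. The points lie low on agonist replicate 1 (mean −0.32), high on agonist replicate 3 (0.31) and low on saline replicate 3 (−0.22).

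The chain genes shared this variation within groups. With group means taken out, the Pearson r over 9 arrays between a probe set and the mean of the other 5 was 0.98 for H2-Aa, 0.96 for H2-Eb1, 0.85 for H2-Ab1, 0.85 for H2-DMa, 0.80 for H2-DMb1 and 0.68 for Cd74. The r with the mean of all 6 was lower for Cd86 (0.53), Ciita (0.36), Ifi30 (0.29) and the Cd83 probe sets (0.17 and −0.69). These values are a description, since all points of an array share its RNA and its scale factor. On agonist replicate 1, 6 of 7 tested B-cell probe sets were at their lowest of the 3 agonist arrays, and 3 of 7 lay below every saline array. Shares over all tested probe sets were not taken for these counts, so nothing is read from them. Cd79a and Cd79b, the signalling chains of the B-cell receptor, read 81.9 and 109 on agonist replicate 1, against 289 and 270 on replicate 2 and 303 and 328 on replicate 3. Their part in the class II values was not tested.

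The 8 genes outside the list whose within-group pattern was most like that of the class II mean, of 5910 genes compared over 9 arrays, were Lama4 (r = 0.99), Rab8b (0.98), Banf1 (0.98), Tcf21 (0.97), Nme1 (0.97), Shisa5 (0.96), Cd48 (0.96) and Nelfe (0.96). Of all compared, 0.812% had r above 0.9. Cd48, an adhesion molecule of leukocytes, read 27.8, 75 and 113 with agonist, 177, 136 and 145 with OVA, and 82.7, 77.9 and 40 with saline. Its OVA arrays were above all others, but it did not pass the test between OVA and saline (limma, log2 change 1.25, adjusted p = 0.151).

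Other genes of the pathway were taken from lists of 44 genes, of which 32 are on the array and 27 were tested with 30 probe sets. Of the 30, 5 rose in OVA over saline lung and 0 fell, beside 5.08% and 4.42% of all tested probe sets called higher and lower. With agonist over OVA, 1 rose and 1 fell, beside 1.25% and 1.50% of all. For agonist over saline 0 passed limma's test. An unadjusted p under 0.05 was seen in 13, 12 and 1 of the 30 in these comparisons (43.3%, 40% and 3.33%), beside 29.1%, 24.2% and 7.71% of all tested probe sets. Their median log2 change was 0.23, −0.28 and 0.02 in these 3 comparisons, beside −0.08, 0.06 and 0 over all tested probe sets.

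Lysosomal proteases held 4 of the 5 rises. Their list had 9 tested probe sets, of which 4 rose over saline and 0 fell, beside 5.08% and 4.42% of all tested probe sets. Ctss, cathepsin S, which makes the last cuts in the invariant chain, read 1269, 1455 and 2210 with agonist, 2711, 3041 and 2696 with OVA, and 1311, 1235 and 1217 with saline. OVA arrays were above both other groups, and Ctss rose by 1.17 on the log2 scale over saline (limma, adjusted p = 0.0185). The log2 change of −0.82 for agonist over OVA did not pass (adjusted p = 0.0645).

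Ctsz, the carboxypeptidase cathepsin Z, read 300, 327 and 413 with agonist, 558, 663 and 554 with OVA, and 257, 258 and 268 with saline. The groups did not overlap, with the OVA arrays highest, the agonist arrays next and the saline arrays lowest. It rose in OVA over saline lung (log2 change 1.18, limma adjusted p = 0.00912) and fell with agonist over OVA (−0.78, adjusted p = 0.0398). The rise passed with every one of the 9 arrays left out (adjusted p up to 0.0443), and the fall only without agonist replicate 3 (0.00836 to 0.130 over all alternatives).

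Lgmn, the asparagine-specific protease legumain, read 254, 218 and 269 with agonist, 469, 387 and 311 with OVA, and 167, 211 and 208 with saline. It rose by 0.98 on the log2 scale in OVA over saline lung (limma, adjusted p = 0.0221). Ctsb, cathepsin B, rose by 0.66 on its brightest probe set (adjusted p = 0.0239), while 2 other Ctsb probe sets had log2 changes of 0.48 and −0.06 and did not pass (adjusted p = 0.121 and 0.656). The rises of Ctss, Lgmn and Ctsb were lost without OVA replicate 1 or 2 or without any 1 saline array, with adjusted p up to 0.0683, 0.0702 and 0.0909. Cathepsins L, D and H (Ctsl, Ctsd, Ctsh) did not pass, with log2 changes of −0.33, −0.11 and 0.25 (adjusted p = 0.137, 0.382 and 0.198). The OVA arrays of Ctsl and Ctsd lay below those of both other groups, opposite to the called proteases. The OVA arrays of Ctsh lay above the saline arrays.

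**Figure D4:**
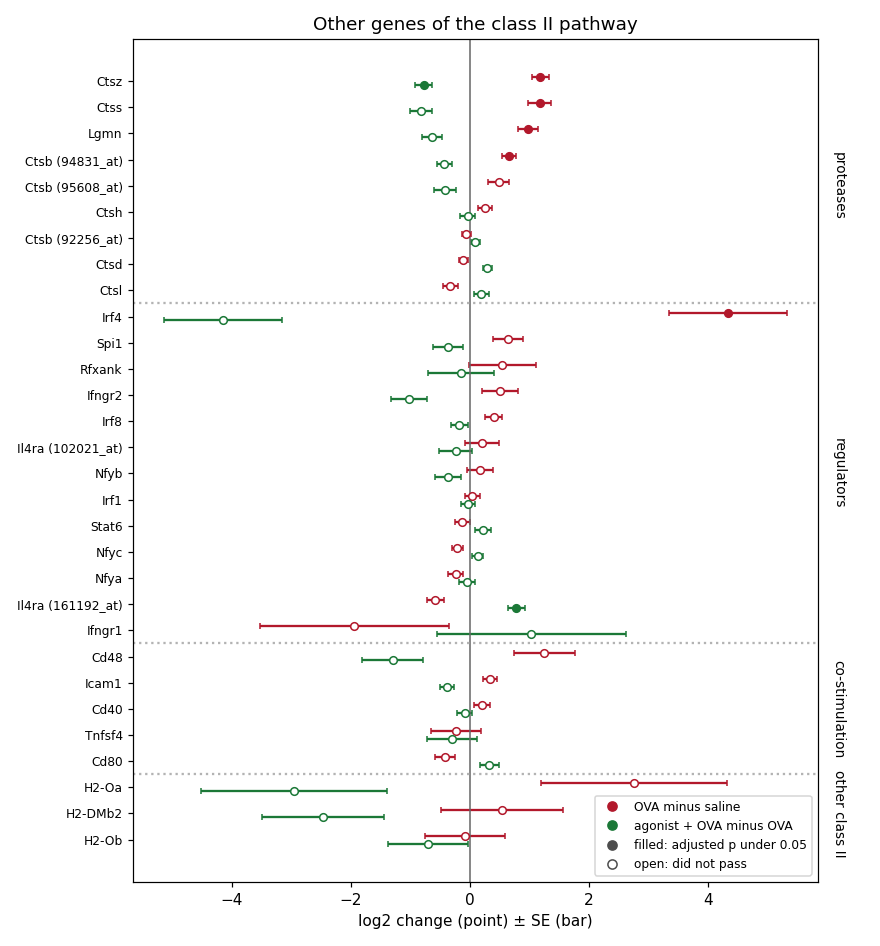
Log2 change (points) with its standard error (bars) of the 30 tested pathway probe sets outside the 10 genes, by list, for OVA over saline in red and agonist over OVA in green. Filled points passed limma's test, and the size for Irf4 depends on the floor; 4 of the 9 protease probe sets did so in OVA over saline lung, led by Ctsz at 1.18 and Ctss at 1.17.

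Of 13 tested probe sets of regulators, for 12 genes, 1 rose in OVA over saline lung, 0 fell and 12 did not pass. Of all tested probe sets, 5.08% were called higher and 4.42% lower. Irf4, a transcription factor of dendritic cells, macrophages and lymphocytes, read −20.1, 6.10 and 20 with agonist, 196, 150 and 71 with OVA, and −3.26, −2.23 and 26.7 with saline. Only its OVA arrays exceeded the detection limit, and it was at least 2.86-fold higher in OVA than in saline lung (OVA geometric mean over the detection limit; limma, adjusted p = 0.0372). Irf4 passed the filter through its OVA arrays alone and so had to differ, and its count among the 5 rises lends no support to the list. It was not testable without any 1 OVA array, and the call was lost without agonist replicate 2 or saline replicate 1 or 2, without the filter and without the floor (adjusted p up to 0.109 over all alternatives). Il4ra, the interleukin 4 receptor chain, rose with agonist over OVA on 1 probe set (48.4, 51.4 and 63 with agonist, 34.8, 28.2 and 31.7 with OVA; at least 1.21-fold, adjusted p = 0.0448). Its agonist arrays alone were enough to pass the filter, with 0 OVA arrays and 1 saline array above the limit. Among the 9 fits with 1 array left out this call was kept only without agonist replicate 3. It was also lost with the floor at the detection limit, without a filter and with a trend and robust prior (adjusted p up to 0.243), and the other Il4ra probe set had a log2 change of −0.24 (adjusted p = 0.632).

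Among the other class II genes 0 of 3 tested probe sets passed limma's test in OVA over saline or agonist over OVA. An unadjusted p under 0.05 was seen in 0 and 1 of the 3, beside 29.1% and 24.2% of all tested probe sets. H2-DMb2, a second H2-DM beta chain, read 3.03, 32.7 and 83.4 with agonist, 130, 120 and 91.1 with OVA, and 81.6, 74.5 and 75.8 with saline. Its OVA arrays lay above both other groups, and its lowest agonist reading was far below the detection limit. H2-DMb2 did not pass for OVA over saline (limma, log2 change 0.54, adjusted p = 0.764). For agonist over OVA its log2 change of −2.47 did not pass either (adjusted p = 0.194, unadjusted 0.0444). H2-Ob did not pass for OVA over saline (−0.08, adjusted p = 0.949). H2-Oa, the partner of H2-Ob in the H2-DM inhibitor H2-O, read −46.8, 9.06 and 136 with agonist, 66.7, 178 and 151 with OVA, and 25.1, 74.9 and −26.5 with saline. OVA arrays overlapped with saline arrays, and the change did not pass (log2 change 2.76, adjusted p = 0.279). Of 5 tested costimulation and adhesion probe sets, 0 passed in either comparison by limma. An unadjusted p under 0.05 was seen in 3 and 2 of the 5, beside the same shares of all tested probe sets. Icam1, the ligand of the leukocyte integrin LFA-1, read 800, 684 and 766 with agonist, 1007, 1027 and 911 with OVA, and 843, 673 and 822 with saline. Its OVA arrays lay above both other groups, with a log2 change of 0.34 over saline that did not pass (adjusted p = 0.105).

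Markers of cells that carry class II were read on the same arrays. The counts of each marker list stand beside 5.08% and 4.42% of all tested probe sets called higher and lower in OVA over saline lung. Of 8 tested dendritic cell probe sets, 2 rose in OVA over saline lung and 0 fell. The log2 change was positive in 6 and negative in 2, which were Zbtb46 (−0.37, limma adjusted p = 0.255) and 1 of the Flt3 probe sets (−0.46, adjusted p = 0.106, arrays not overlapping). Itgax, which encodes CD11c, read 287, 251 and 256 with agonist, 592, 687 and 496 with OVA, and 288, 274 and 128 with saline (log2 change 1.44 for OVA over saline, limma adjusted p = 0.0308). Batf3, a transcription factor of conventional dendritic cells, read 120, 98.7 and 145 with agonist, 192, 230 and 172 with OVA, and 84.8, 108 and 112 with saline (0.96, adjusted p = 0.0249). The summed intensity of the dendritic cell list was 1375 to 1696 with agonist, 1905 to 2256 with OVA and 1499 to 1710 with saline, highest in OVA lung without overlap. Without Itgax the sums were 1088 to 1440, 1409 to 1570 and 1296 to 1435, and the groups overlapped. Both calls were lost without OVA replicate 1 or 2 or saline replicate 1 or 2, and that of Batf3 also without saline replicate 3 (adjusted p up to 0.0992 for Itgax and 0.0879 for Batf3).

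Of 6 tested macrophage probe sets, 3 rose in OVA over saline lung (Cd68, Csf1r and Mrc1, limma adjusted p = 0.0296, 0.0427 and 0.0450) and 2 fell (Mertk and Lyz2, adjusted p = 0.0484 and 0.0492). Lyz2 rose with agonist over OVA (log2 change 0.57, adjusted p = 0.0444). The summed level of the list was 7363 to 7572 with agonist, 5334 to 6252 with OVA and 6305 to 7161 with saline, of which Lyz2 alone gave 6062 to 6343, 3637 to 4645 and 5148 to 5884. Without Lyz2 the sums were 1229 to 1430 with agonist, 1599 to 1697 with OVA and 1156 to 1276 with saline, highest in OVA lung. Every one of these calls was lost without OVA replicate 1 or 2 or any 1 saline array. Further losses came without OVA replicate 3 (Cd68, Csf1r), agonist replicate 1 (Csf1r, Mrc1, Lyz2), agonist replicate 2 (Csf1r, Mertk, Lyz2) and agonist replicate 3 (the fall of Lyz2). Adjusted p reached 0.103 for Cd68, 0.139 for Csf1r, 0.146 for Mrc1 and 0.149 for Mertk, and 0.139 for the fall and 0.146 for the rise of Lyz2. B-cell markers (7 tested, 0 called by limma, 1 at an unadjusted p under 0.05 for OVA over saline) summed to 1341 to 2079, 1890 to 2092 and 1726 to 2101. T-cell markers (3 tested, 0 called, 0 at an unadjusted p under 0.05) summed to 293 to 419, 260 to 331 and 253 to 305, with Cd3e, Cd3g and Cd8a below the detection limit. Of all tested probe sets, 29.1% had an unadjusted p under 0.05 for OVA over saline.

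Of the alveolar type 2 markers, 1 of 3 tested probe sets changed. Sftpb, a surfactant protein, was lower in OVA than in saline lung (log2 change −0.49, limma adjusted p = 0.0371; up to 0.118, the call lost without OVA replicate 1 or 2, agonist replicate 2 or any 1 saline array). The list summed to 17839 to 18410 with agonist, 12814 to 16390 with OVA and 15858 to 19201 with saline. Sftpd, another surfactant protein, read 62.9, 87.6 and 163 with agonist, 138, 161 and 122 with OVA, and 83, 94.9 and 64.4 with saline. Its OVA arrays lay above the saline arrays, with a log2 change of 0.81 that did not pass (adjusted p = 0.155).

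Some markers of endothelium and club cells, which are not known chiefly for class II, also moved. Leukocyte and neutrophil markers are given beside them, and none of these passed. Of 6 tested endothelial probe sets, 4 fell in OVA over saline lung and 0 rose, beside 4.42% and 5.08% of all tested probe sets. The falls were those of Icam2 (log2 change −0.60, limma adjusted p = 0.0150), Kdr (−0.57, 0.0136), Cdh5 (−0.52, 0.02) and Tie1 (−0.36, 0.0313). Cdh5, the cadherin of endothelial junctions, rose with agonist over OVA (0.45, adjusted p = 0.0475). The endothelial sum was 5702 to 6004 with agonist, 4292 to 4716 with OVA and 5955 to 6125 with saline, lowest in OVA lung without overlap. The club cell enzyme Cyp2f2 fell in OVA over saline lung (−0.97, adjusted p = 0.0115) and rose with agonist over OVA (0.92, adjusted p = 0.0356). Without OVA replicate 2 all 5 falls were lost. Further losses came without OVA replicate 1 (all but Kdr), saline replicate 1 (Icam2, Cdh5, Tie1), saline replicate 2 (Kdr, Cdh5, Tie1), saline replicate 3 (all but Cyp2f2) and agonist replicate 2 (Tie1). Over all alternatives adjusted p reached 0.0627 for Icam2, 0.0584 for Kdr, 0.0747 for Cdh5, 0.106 for Tie1 and 0.0584 for Cyp2f2. The calls of Cdh5 and Cyp2f2 with agonist over OVA were lost without OVA replicate 1 or 2, agonist replicate 1 or 2 or any 1 saline array, and that of Cdh5 also without OVA replicate 3 (up to 0.167 and 0.130). Ptprc, which encodes the leukocyte marker CD45, read 248, 219 and 355 with agonist, 385, 339 and 313 with OVA, and 247, 225 and 149 with saline on its brighter probe set. Its OVA arrays lay above the saline arrays, and the log2 change of 0.77 did not pass (adjusted p = 0.0829). The neutrophil genes S100a8 and S100a9 were high on 2 agonist arrays: S100a8 read 2281, 287 and 2026 with agonist, 421, 323 and 281 with OVA, and 403, 259 and 314 with saline (agonist over OVA, log2 change 1.71, adjusted p = 0.201). Ly6g, the other neutrophil gene of the list, was not above the detection limit on any array. Some of the markers moved with or against the class II genes between the groups, and others, such as those of B and T cells, did not pass in any comparison. The part of any of them in the class II result was not tested.

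**Figure D5:**
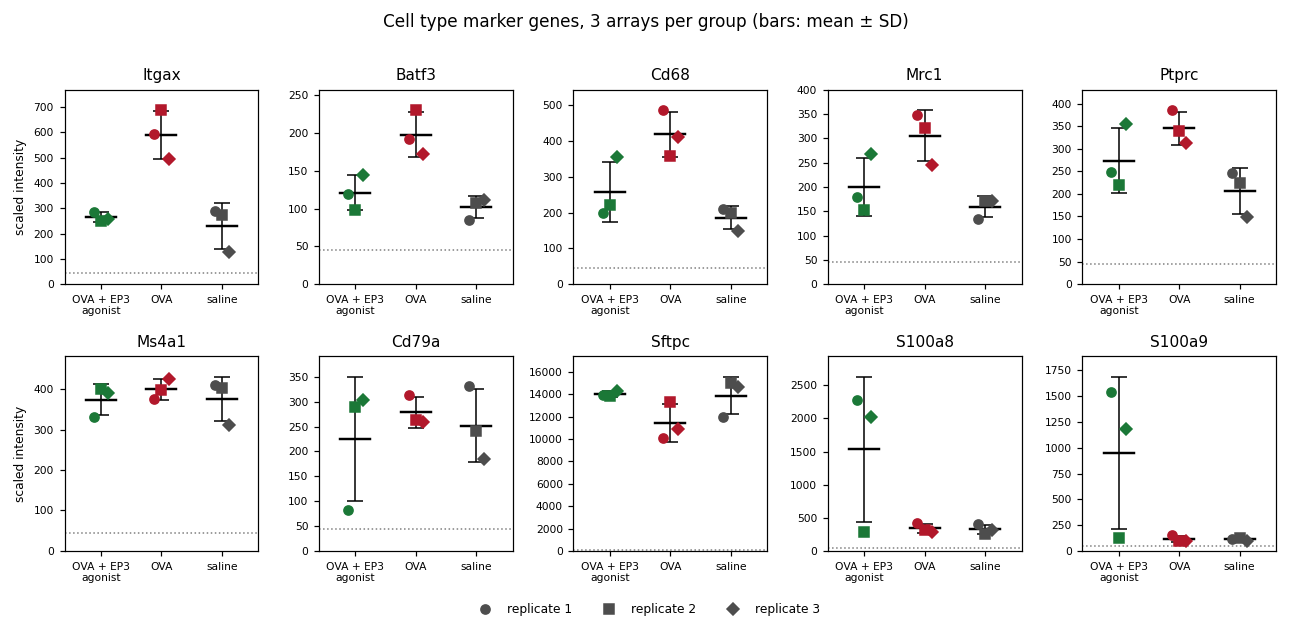
Scaled intensity of 10 marker genes on each array (points), with group means (thick lines), SD over 3 arrays (bars) and the detection limit of 44.7 (dotted), EP3 agonist arrays left, OVA arrays in the middle and saline arrays right. Itgax is highest on the OVA arrays (496 to 687), and S100a8 is high on agonist replicates 1 and 3 alone (2281 and 2026). The 10 genes are a selection from the lists. Dendritic cell and macrophage markers that were lower in OVA than in saline lung, such as Zbtb46, Mertk and Lyz2, are not shown.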

How the data were processed

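As deposited, the values are linear intensities, 1 for each of 12488 probe sets on 9 arrays; how the authors computed them is not given in the sources used here. Each array was scaled by its 2% trimmed mean to the mean of the 9. Values below 3.1 (the 20th percentile) were raised to it before log2, so fitted changes of probe sets with values near or below it depend on the floor. Groups were compared in 1 limma fit of the 9 arrays (limma 3.58.1, R 4.3.3; 6 residual and 1.69 prior degrees of freedom; two-sided, Benjamini-Hochberg). The procedure was tested on simulated data. The array number limits precision. Of the probe sets, 10833 carry 1 symbol, 396 several and 1193 none; a RefSeq gene table matched 10817 and changed 0 of the listed symbols.

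Members, lists and tests were chosen with earlier results of these data known. All 10 genes are described; of the pathway lists, genes called in any comparison are named (up to 4 a list), else the 2 with the highest mean over the 9 arrays, and H2-Ea; called markers are named too. Some further genes of these lists were named after their values were seen. Alternatives were other scalings, floors, filters and priors, fewer arrays, a replicate block and each array left out.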

Additional observations from a re-analysis of the deposited data

How the results depend on the processing

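For OVA over saline, 6 class II probe sets were called; other scalings, floors, filters and priors and the fit of 6 arrays gave 6 to 8. For agonist over OVA, 5 were called; 1 was called without a filter (1 in the other pathway lists), and 0 with only the 6 arrays of both groups (0 in the pathway lists), a fit that called 15 of all probe sets in place of 218. The other scalings, floors, filters and priors gave 4 to 7. With each array left out, the counts were 2 to 6 for OVA over saline and 0 to 6 for agonist over OVA, and in the pathway lists 1 to 7 and 0 to 6. For agonist over saline 0 class II probe sets were called in every alternative. The medians ran from 0.97 to 1.13, from −1.02 to −0.76 and from 0.10 to 0.29 in the 3 comparisons. Of the called changes of single class II probe sets, 0 turned in sign. Leaving out 1 array could not turn them, since their groups did not overlap. Of the changes not called, 1 of 5 turned in sign for OVA over saline (Cd83) and 3 of 6 for agonist over OVA (Cd83, Cd86 and Ciita). For agonist over saline 4 of 11 did so (Cd83, Cd86, H2-Eb1 and H2-DMb1). Where calls were lost, the cause was not tested. With the replicate number as a block, 0 class II probe sets were called in either comparison with OVA, and 1 and 0 in the pathway lists; over all probe sets 50 were called in place of 752 and 14 in place of 218. The labels do not say what the number stands for, and bioC and bioD controls were lowest on number 2 in each group. Deviations from the group means correlated at −0.139 to 0.169 between arrays of the same number. Between arrays of different numbers they correlated at −0.154 to 0.149. In 8 of 18 comparisons the own number was highest. Whether the number marks a batch cannot be told from these values. Readings near the detection limit, as for Cd83 and Cd86, limit what can be seen.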
